A study of Mus musculus with 25 samples.

Results

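Fas-/- and Fas+/+ mice were compared by bulk RNA-seq of lung Lin- cells at 3 weeks after bleomycin, with 4 libraries for each genotype, so that 8 of the 25 libraries of the series, and 8 of its 20 bulk libraries, carried the comparison. The members were taken by their labels as the week 3 libraries of both genotypes. Lin- cells are lung cells sorted by flow cytometry as negative for CD45 (hematopoietic), CD31 (endothelial) and CD326 (epithelial) and as viable by exclusion of DAPI. All mice, naive mice included, carried the Col1a1-CreERT2 transgene and floxed Fas alleles (Fas fl/fl). The 3-week and 6-week mice had received bleomycin into the trachea, and mice called Fas-/- were then injected with tamoxifen and mice called Fas+/+ with its corn oil vehicle. Genotype and tamoxifen were therefore a single factor in every comparison. Per the study the injections began on day 4 after bleomycin and ended by 3 weeks. A genotype difference that changed with week therefore cannot be told apart from one that changed with time since dosing. The Cre recombinase was driven by the Col1a1 promoter, and which Lin- cells lost exon 9 of Fas was not examined here. Naive mice were not instilled, and the remaining 8 instilled bulk libraries came from Fas+/+ and Fas-/- mice at 6 weeks. The labels did not state the age of the mice. The study describes its replicates as individual animals, although no label ties a library to an animal and some libraries held transcripts of both sexes.

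Fas is a death receptor that, once bound by Fas ligand, recruits the adaptor Fadd and caspase-8 and starts apoptosis. Lung fibroblasts carry it, and they are cells that deposit collagen after epithelial injury and are cleared as fibrosis resolves. In the interferon response, receptors for interferon activate transcription factors that include Stat2 and Irf9. Their complex binds a short element, the interferon-stimulated response element (ISRE), in the promoters of genes such as Ifit3 and Isg15. Lipofibroblasts are resident alveolar fibroblasts that store lipid droplets and express Tcf21, Plin2 and Wnt2.

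The promoter windows of interferon-stimulated genes are shown because these genes formed the largest named group among the genes that differed. RefSeq promoters of GRCm38.p6, each 300 bases long from 250 bases before to 50 bases after a gene start, were searched on both strands for the ISRE core, the letters GAAA, any 2 bases and GAAA again (TTTC, any 2 bases and TTTC on the other strand), with overlapping matches counted. This core was present in 1131 of 32851 promoter windows (3.44%). It was present in 9 of 16 windows of the interferon list, which stood for 14 of its 18 genes, in 4 of 28 windows (14.3%) of the 19 called genes that had one, and in 3 of 6 windows of the called interferon-stimulated genes, which stood for 5 of 8 genes. The stretches around the matches, read 5′ to 3′ on the strand of the gene with the matches in capitals, were as follows for 3 genes that differed at 3 weeks (Gbp3 at chr3:142559974-142560039, plus strand; Ifit3 at chr19:34583348-34583441, plus strand; Stat2 at chr10:128270251-128270310, plus strand) and for 2 further genes of the list (Isg15 at chr4:156200850-156200921, minus strand; Ifit1 at chr19:34640760-34640838, plus strand).
Gbp3: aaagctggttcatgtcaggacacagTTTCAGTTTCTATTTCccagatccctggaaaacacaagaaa
Ifit3: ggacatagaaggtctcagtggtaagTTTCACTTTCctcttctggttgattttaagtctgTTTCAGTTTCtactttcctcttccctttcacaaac
Stat2: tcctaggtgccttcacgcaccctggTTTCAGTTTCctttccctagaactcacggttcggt
Isg15: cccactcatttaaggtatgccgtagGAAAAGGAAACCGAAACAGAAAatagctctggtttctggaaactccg
Ifit1: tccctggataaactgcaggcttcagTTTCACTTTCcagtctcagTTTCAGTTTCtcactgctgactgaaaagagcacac
The first match stood 45 bases before the start in Gbp3, 156 in Ifit3, 222 in Stat2, 78 in Isg15 and 104 in Ifit1. The windows of Irf7 and Oasl2 did not hold these letters, and Usp18 and Ifi27l2a had no window in the table.

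Total counts of the 8 libraries ran from 11819700 (Fas+/+ replicate 3) to 23737902, and the other 7 held at least 19169028. Fas+/+ replicate 1 and Fas-/- replicate 4 stood apart from the other 6 libraries. Their 12 endothelial markers had mean levels of 9.26 and 9.16 log2 CPM (counts scaled to the library total), against 7.48 to 7.85 in the other Fas+/+ and 5.66 to 6.35 in the other Fas-/- libraries. Pecam1, which encodes the CD31 used for the sort, was at 1626 and 1483 CPM in those 2 libraries and at 104 to 568 CPM in the other 6, so endothelial transcripts were present in cells sorted as CD31 negative. Ptprc (CD45) was at 0.61 to 2.57 CPM and Epcam (CD326) at 0.80 to 2.34 CPM. The fibroblast markers Pdgfra (864 to 1562 CPM) and Col1a1 (3025 to 17202 CPM) were high in every library. Fas+/+ replicate 1 had 0.049 CPM of the Y-linked gene Ddx3y and 599 CPM of Xist, while the other 7 libraries had at least 35.4 CPM of Ddx3y. Fas-/- replicates 1 and 3 had both Xist (272 and 309 CPM) and Ddx3y (35.4 and 37.3 CPM). Xist and Ddx3y were also read together in Fas+/+ replicate 2 (74.2 and 50.3 CPM) and Fas-/- replicate 2 (71.5 and 51.4 CPM). In Fas+/+ replicate 3 they were at 11.8 and 56.5 CPM. Xist marks female and Ddx3y male cells, so libraries with both held transcripts of both sexes. Whether each of these libraries came from 1 mouse was not tested. With the level of Ddx3y as a covariate all 27 genes described below remained called.

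**Figure D1:**
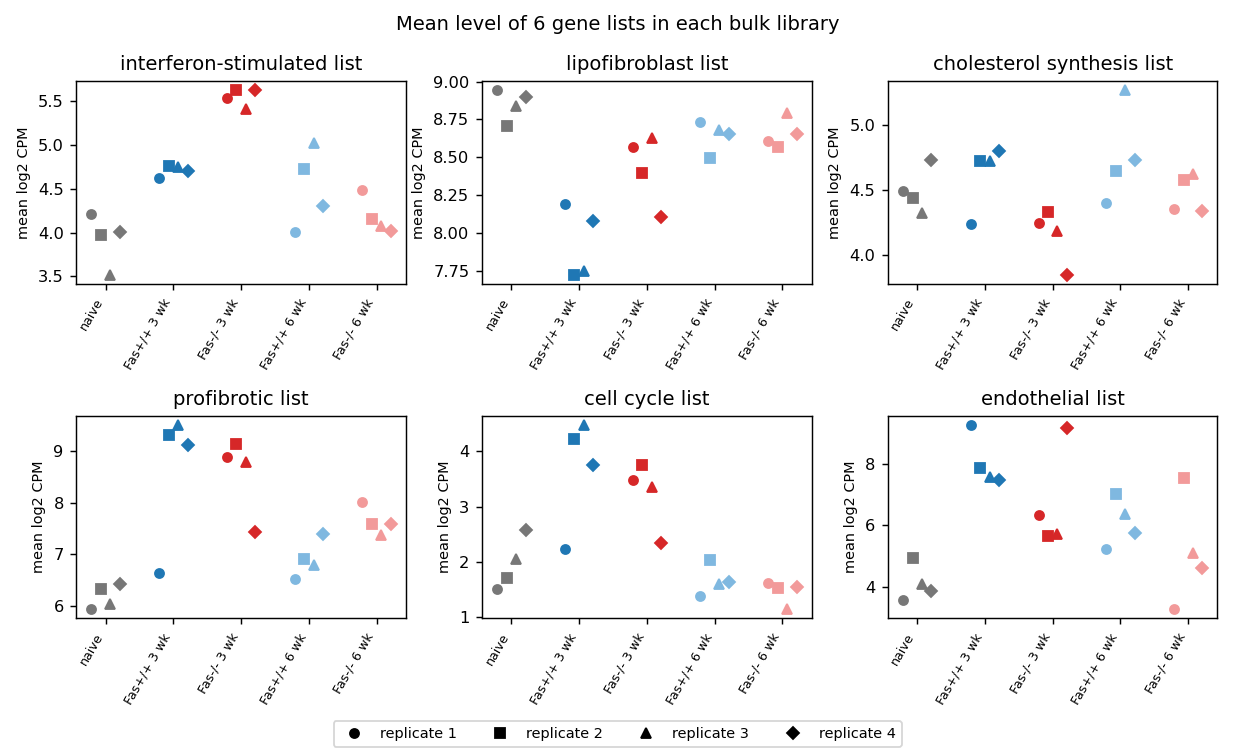
Mean log2 CPM of 6 gene lists (vertical axes) in each of the 20 bulk libraries, in 5 groups along the horizontal axes, with marker shapes for replicate numbers. The interferon-stimulated list lay between 5.42 and 5.63 in the Fas-/- and between 4.63 and 4.76 in the Fas+/+ libraries at 3 weeks, while Fas+/+ replicate 1 and Fas-/- replicate 4 stood apart in the endothelial, profibrotic and cell cycle lists.

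Fas transcript counts did not separate the genotypes. Fas (chromosome 19, 34290666 to 34327772, plus strand, GRCm38) was at 57.7, 34, 34.1 and 38.4 CPM in Fas+/+ replicates 1 to 4 and at 42.3, 35.4, 34.4 and 64.9 CPM in Fas-/- replicates 1 to 4. The groups overlapped, and the log2 fold change (Fas-/- over Fas+/+) was 0.11 ± 0.20 (SE; adjusted p = 0.910). Without Fas-/- replicate 4 it was -0.12. The floxed part of Fas is exon 9, and counts per gene do not read that exon apart from the rest, so these values do not check the deletion. Among 18 measured genes of the death receptor pathway, 7 had a positive and 11 a negative log2 fold change, with a median of -0.01 beside -0.0024 over all 15773 genes tested. None was called by edgeR or by DESeq2, and 1 of the 18, the TNF receptor adaptor Tradd, had an unadjusted p of 0.05 or less. The 18 measured survival genes had a median of -0.13 and no call by either tool.

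Across all genes tested, 26 were higher in Fas-/- mice (0.165% of genes) and 1 was lower (0.00634%) at an adjusted p of 0.05. An unadjusted p of 0.05 or less was reached by 935 genes with a higher level (5.93%) and 424 with a lower level (2.69%). In each of the 27 called genes the 4 Fas-/- libraries did not overlap the 4 Fas+/+ libraries. Without overlap the exact permutation test can only give its smallest two-sided p for this design, 0.0286, so that p adds nothing further. Over all genes, 392 (2.49%) lay without overlap above and 227 (1.44%) without overlap below the Fas+/+ libraries. The called changes ran from 1.37-fold to 3.96-fold, and all 27 were also among the 140 higher and 23 lower genes of DESeq2. The number of calls rested on single libraries. Without Fas+/+ replicate 2 or replicate 3 edgeR called no gene, with 669 and 755 genes higher and 348 and 391 lower at an unadjusted p of 0.05. It called 5 higher genes without Fas-/- replicate 1, 20 without replicate 2 and 8 without replicate 3, and 59 higher and 5 lower genes without Fas+/+ replicate 4. Without Fas+/+ replicate 1 it called 185 higher and 34 lower genes, and without Fas-/- replicate 4 it called 281 higher and 301 lower genes. Without both of these libraries, chosen after the data were seen, 406 higher and 196 lower genes were called, all 27 among them. Fewer were kept in other fits, 21 of the 27 with the endothelial level as a covariate and 3 with only the 8 libraries of week 3, where Adh1, Apoe and Nav2 had adjusted p-values of 0.102, 0.138 and 0.171 by edgeR. All 27 kept their direction and an unadjusted p of 0.05 or less in every one of the 16 alternative fits. These fits reused the counts that had chosen the genes, so a kept direction is not independent support.

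**Figure D2:**
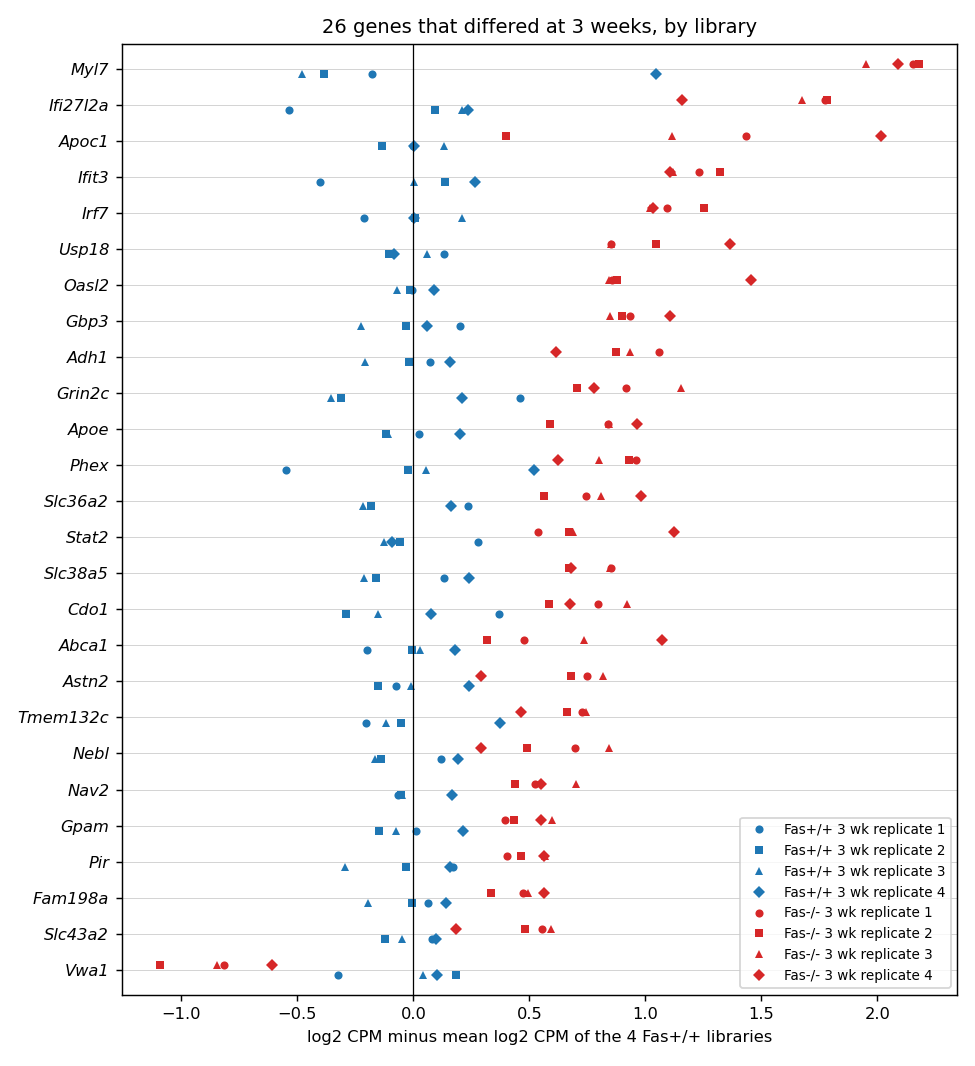
Log2 CPM of 26 of the 27 called genes in the 8 libraries at 3 weeks (horizontal axis), each minus the mean of the 4 Fas+/+ libraries for that gene. Points are single libraries, blue for Fas+/+ and red for Fas-/-, with marker shapes for replicate numbers, and in every gene drawn the red points lie on 1 side of all blue points.

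Interferon-stimulated genes were the largest named group, with 8 of the 26 genes that rose, among them Stat2, Irf7, Usp18, Oasl2, Ifit3, Gbp3 and Ifi27l2a. These named genes were 1.70-fold to 3.01-fold higher in Fas-/- mice. Of the list of 18 interferon-stimulated genes, chosen with earlier results of these data known, all 18 had a positive log2 fold change (49.4% of all genes did), 6 were called, 17 had an unadjusted p of 0.05 or less and 14 showed no overlap. The median of the list was 0.97. It ran from 0.85 to 1.02 when single libraries were left out and was 0.86 without both libraries that stood apart, and all 18 stayed positive in each of these fits. The endothelial markers had a median log2 fold change of -0.68, with 12 of 12 negative, none called by either tool and none with an unadjusted p of 0.05 or less. That value rested on the 2 libraries that stood apart, since the median was -0.06 with 5 of 12 positive without Fas+/+ replicate 1, -2.37 without Fas-/- replicate 4 and -1.74 without both. With the mean level of these markers as a covariate 8 of the 18 interferon genes were called and the median was 0.82. The 9 measured immune markers had a median of 0.51 and summed to 65.6 to 88.8 CPM in Fas+/+ and 42.8 to 167 CPM in Fas-/- libraries, and Cd3e, Itgam and Marco were below the filter.

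Transcription factors of the response were higher in each Fas-/- library. Stat2 (chromosome 10, 128270559 to 128292849, plus strand), which interferon receptors activate, was at 96.7, 76.7, 73.0 and 75.0 CPM in Fas+/+ and at 116, 127, 129 and 174 CPM in Fas-/- libraries. Fas-/- replicate 4 was the highest and Fas+/+ replicate 1 the highest of its group, and the log2 fold change was 0.76 ± 0.14 (adjusted p = 0.0338). Irf9, which binds DNA together with Stat2, was at 47.4 to 60.2 CPM in Fas+/+ and 70.3 to 98.5 CPM in Fas-/- libraries without overlap (log2 fold change 0.59 ± 0.13), but its adjusted p was 0.0697.

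Irf7 (chromosome 7, 141262706 to 141266481, minus strand), a transcription factor that amplifies the type I interferon response, was at 25.9, 30.2, 34.7 and 30.1 CPM in Fas+/+ and at 64.3, 71.9, 61.1 and 61.7 CPM in Fas-/- libraries. The Fas-/- libraries lay close together, all far above the Fas+/+ libraries, and the log2 fold change was 1.10 ± 0.19 (adjusted p = 0.0226). Usp18 (chromosome 6, 121245906 to 121270917, plus strand), which removes Isg15 from proteins and restrains the interferon receptor, was at 11.7, 9.96, 11.2 and 10.1 CPM in Fas+/+ and at 19.4, 22.2, 19.4 and 27.7 CPM in Fas-/- libraries. Its log2 fold change was 1.05 ± 0.18 (adjusted p = 0.0226), and Fas-/- replicate 4 was the highest library.

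The effectors followed the same order of groups. Ifit3 (chromosome 19, 34583531 to 34588731, plus strand), which binds viral RNA together with Ifit1, was at 22.3, 32.4, 29.5 and 35.5 CPM in Fas+/+ and at 69.3, 73.9, 64.2 and 63.6 CPM in Fas-/- libraries (log2 fold change 1.18 ± 0.21; adjusted p = 0.0237). Its near-identical neighbor Ifit3b was at 5.20 to 7.5 CPM in Fas+/+ and 12.5 to 15.1 CPM in Fas-/- libraries (log2 fold change 1.08, adjusted p = 0.0985), and reads that map to both copies could be lost or split between them. Ifi27l2a (chromosome 12, 103442167 to 103443680, minus strand), an interferon-inducible gene, was at 18.5, 28.7, 31.1 and 31.7 CPM in Fas+/+ and at 92.2, 92.8, 86.1 and 60.1 CPM in Fas-/- libraries. This was the largest change of the group (log2 fold change 1.59 ± 0.31, adjusted p = 0.0436). Oasl2, of the oligoadenylate synthetase family, was at 54.6 to 61.0 CPM in Fas+/+ libraries and at 104, 105, 103 and 157 CPM in Fas-/- libraries (adjusted p = 0.0226). Gbp3 (chromosome 3, 142560026 to 142573209, plus strand), an interferon-inducible GTPase, was at 23.9 to 32.2 CPM in Fas+/+ and at 50.5 to 60.3 CPM in Fas-/- libraries (log2 fold change 0.94 ± 0.15; adjusted p = 0.0217).

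Members of the list that did not pass the adjusted test had values in the same direction. Isg15, a ubiquitin-like modifier, was at 7.51, 14.4, 15.2 and 13.1 CPM in Fas+/+ and at 25.9, 30.2, 23 and 22.6 CPM in Fas-/- libraries (log2 fold change 1.02 ± 0.31, adjusted p = 0.224). Ifit1 was at 12.9 to 16 against 25.6 to 28.7 CPM (adjusted p = 0.184), and Oas1a, which makes the activator of RNase L, at 4.76 to 7.98 against 9.83 to 15.7 CPM (adjusted p = 0.261). In each of these 3 genes the groups did not overlap. Rsad2 (viperin) overlapped between the groups and was the member with the largest p (log2 fold change 0.55, adjusted p = 0.700).

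Several genes of cholesterol efflux and lipid handling rose as well. Of these, Apoe, Apoc1 and Abca1 stand on the list of 13 genes of the liver X receptor, a nuclear receptor for oxysterols. In that list 7 genes had a positive log2 fold change and the median was 0.03. Apoe (chromosome 7, 19696109 to 19699188, minus strand), the apolipoprotein that carries lipid between cells, was at 767, 695, 700 and 867 CPM in Fas+/+ and at 1348, 1134, 1354 and 1469 CPM in Fas-/- libraries. The groups did not overlap, and the log2 fold change was 0.81 ± 0.12 (adjusted p = 0.0085). Apoc1, whose gene neighbors Apoe (chromosome 7, 19689481 to 19692660, minus strand), was at a low 1.77, 1.60, 1.95 and 1.77 CPM in Fas+/+ and at 4.95, 2.36, 3.94 and 7.44 CPM in Fas-/- libraries (log2 fold change 1.40 ± 0.26, adjusted p = 0.0296). Fas-/- replicate 4 was the highest and replicate 2 the lowest of its group. Abca1 (chromosome 4, 53030787 to 53159895, minus strand), the exporter of cellular cholesterol, was at 144, 164, 168 and 187 CPM in Fas+/+ and at 230, 206, 275 and 347 CPM in Fas-/- libraries. Its log2 fold change of 0.67 ± 0.13 (adjusted p = 0.0436) became 0.45 without both libraries that stood apart. The related exporter Abcg1 overlapped between the groups, with its highest levels in Fas-/- replicate 4 (63.3 CPM) and Fas+/+ replicate 1 (47.0 CPM). Gpam (chromosome 19, 55067268 to 55127238, minus strand), the mitochondrial acyltransferase that begins triglyceride synthesis, was at 81.1 to 104 CPM in Fas+/+ and at 119 to 136 CPM in Fas-/- libraries (log2 fold change 0.49 ± 0.09, adjusted p = 0.0237), and it was the only called member among 23 measured lipid storage genes (median 0.12).

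Cholesterol synthesis genes had lower levels in Fas-/- mice, although none was called by edgeR. All 24 measured genes of the list had a negative log2 fold change (50.6% of all genes did), with a median of -0.45, 11 had an unadjusted p of 0.05 or less, 5 showed no overlap, and DESeq2 called 2. Fas+/+ replicate 1 lay below the rest of its group, at a mean of 4.24 log2 CPM over the list against 4.72 to 4.80, and Fas-/- libraries lay at 3.85 to 4.33. Idi1, an isomerase of the pathway, was at 4.56, 5.40, 6.47 and 8.92 CPM in Fas+/+ and at 3.66, 4.03, 2.82 and 2.96 CPM in Fas-/- libraries. The groups did not overlap (log2 fold change -0.91, adjusted p = 0.175). Insig1, the sterol sensor that holds back the activation of Srebf2, was at 48.5 to 56.6 CPM in Fas+/+ and at 31.7 to 42.2 CPM in Fas-/- libraries, also without overlap (log2 fold change -0.43, adjusted p = 0.328). Without Fas+/+ replicate 1 the median of the list was -0.60 and without Fas-/- replicate 4 it was -0.30.

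**Figure D3:**
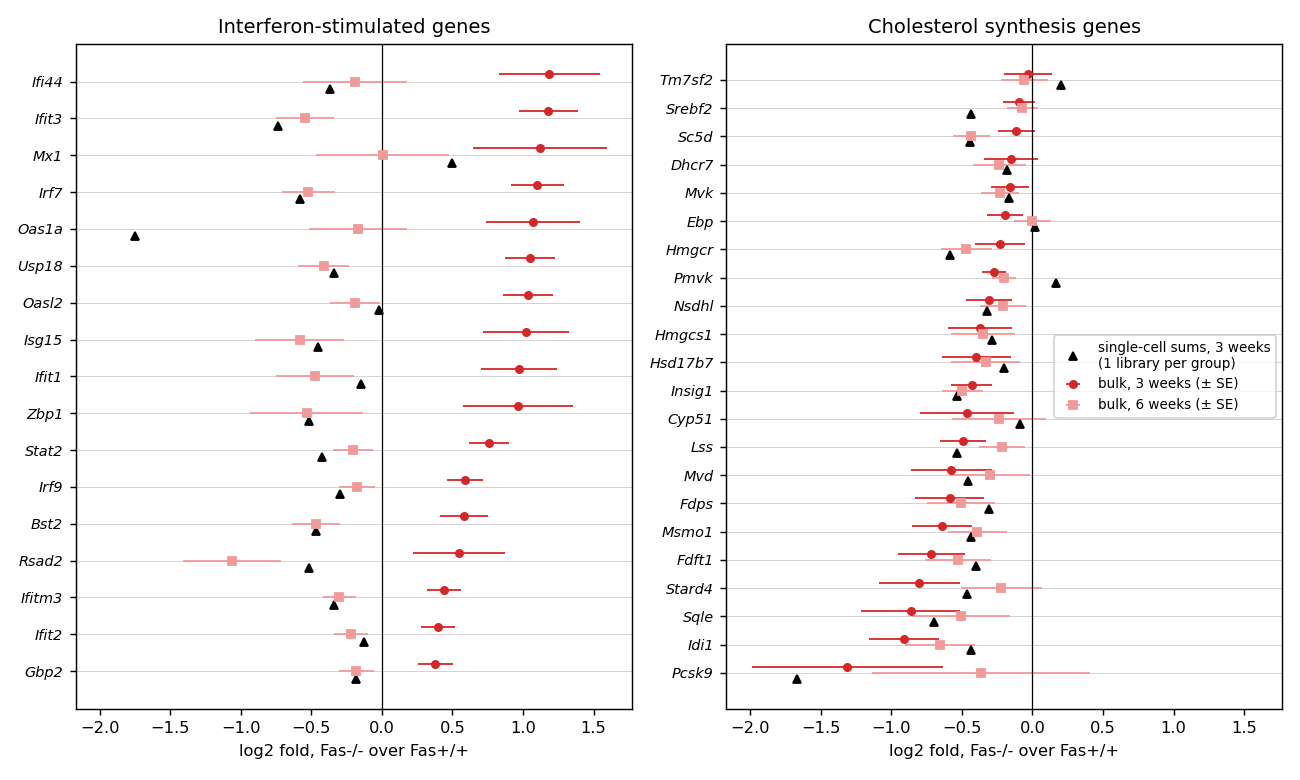
Log2 fold of Fas-/- over Fas+/+ (horizontal axes) for 17 interferon-stimulated and 22 cholesterol synthesis genes (vertical axes), with edgeR estimates ± SE in bulk libraries at 3 weeks (circles) and 6 weeks (squares) and the ratio of summed single-cell CPM at 3 weeks (triangles, 1 library per genotype, no error between mice). Interferon-stimulated genes lay to the right of 0 in bulk at 3 weeks, and to the left of 0 in both other data sets with the exception of Mx1, while most cholesterol synthesis genes lay to the left in all 3.

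Lipofibroblast markers had higher levels in 3 of the 4 Fas-/- bulk libraries at 3 weeks, and none passed the test with all 8 libraries. Of 15 measured markers 14 had a positive log2 fold change, with a median of 0.48, 12 had an unadjusted p of 0.05 or less, 4 showed no overlap and edgeR called none, while DESeq2 called 4. Fas-/- replicate 4 lay at a mean of 8.11 log2 CPM over the list, among the Fas+/+ libraries (7.73 to 8.19), and the other Fas-/- libraries lay at 8.40 to 8.63. Without the 2 libraries that stood apart, a pair chosen after the data were seen, 13 of the 15 were called and the median was 0.72. For this list Fas+/+ replicate 1 was the highest Fas+/+ and Fas-/- replicate 4 the lowest Fas-/- library. Leaving both out therefore had to widen the difference in list means. At 6 weeks the median of the list was 0.01. Wnt2, a ligand of alveolar fibroblasts, was at 30.4, 28.2, 23.6 and 33.2 CPM in Fas+/+ and at 48.3, 37.2, 48.9 and 39.2 CPM in Fas-/- libraries (log2 fold change 0.59 ± 0.15, adjusted p = 0.134). Col13a1, a transmembrane collagen of alveolar fibroblasts, did not overlap either, at 220 to 308 against 346 to 423 CPM (adjusted p = 0.0531). The transcription factor Tcf21 was at 209, 100, 102 and 130 CPM in Fas+/+ and at 216, 185, 234 and 120 CPM in Fas-/- libraries. It overlapped through the 2 libraries that stood apart, and its log2 fold change was 0.48 ± 0.22 (adjusted p = 0.567). The lipid droplet coat gene Plin2 was at 78.3 to 96.9 CPM in Fas+/+ and at 109, 112, 113 and 84.4 CPM in Fas-/- libraries (adjusted p = 0.230). In bulk samples a larger share of a cell type and more RNA per cell cannot be told apart.

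The gene with the smallest p belonged to retinoid metabolism. Adh1 (chromosome 3, 138260991 to 138290698, plus strand), an alcohol dehydrogenase that oxidizes retinol, was at 218, 205, 180 and 231 CPM in Fas+/+ and at 433, 380, 397 and 318 CPM in Fas-/- libraries. The groups did not overlap, and the log2 fold change was 0.87 ± 0.11 (adjusted p = 0.00782). Its relative Adh7 was at 3.90 to 8.16 against 12.1 to 14.9 CPM (log2 fold change 1.12 ± 0.23, adjusted p = 0.0583). Cyp26b1, which degrades retinoic acid, had the opposite direction, at 33.5 to 48.6 CPM in Fas+/+ and 14.5 to 22.1 CPM in Fas-/- libraries without overlap (log2 fold change -1.09 ± 0.22, adjusted p = 0.0524). Adh1 was the only called gene of the 22 retinoid genes measured, whose median was 0.04.

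Amino acid transporters formed a further set among the called genes, seen after the results and named here without a test of the set. Slc38a5, a glutamine transporter, was at 56.8, 46.3, 44.7 and 61.1 CPM in Fas+/+ and at 93.5, 82.5, 93.2 and 83.0 CPM in Fas-/- libraries. The groups were separated by more than the range within the Fas-/- group, and the log2 fold change was 0.75 ± 0.11 (adjusted p = 0.0085). Slc36a2, a proton-coupled carrier of small amino acids, was at 66.6 to 91.1 against 114 to 153 CPM (adjusted p = 0.0226). Slc43a2, which carries large neutral amino acids, was at 76.3 to 88.9 against 94.4 to 125 CPM (adjusted p = 0.045). Cdo1, cysteine dioxygenase, which begins the breakdown of cysteine, was at 132 to 208 against 242 to 305 CPM (adjusted p = 0.0237).

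The other called genes had varied roles. Myl7, an atrial myosin light chain, had the largest fold, at 1.23, 1.05, 0.975 and 2.99 CPM in Fas+/+ and at 6.56, 6.70, 5.69 and 6.27 CPM in Fas-/- libraries (log2 fold change 1.99 ± 0.37, adjusted p = 0.0296). Fas+/+ replicate 4 was the highest of its group, at under 3 CPM. Phex (chromosome X, 157162075 to 157415312, minus strand), a membrane peptidase of phosphate balance, was at 16.1, 23.3, 24.6 and 34 CPM in Fas+/+ and at 46.1, 45.2, 41.2 and 36.5 CPM in Fas-/- libraries (log2 fold change 0.79 ± 0.15, adjusted p = 0.0397). Nav2 (chromosome 7, 48908716 to 49610090, plus strand), a cytoskeleton-associated protein first known from neurons, was at 55.1, 55.6, 55.8 and 64.8 CPM in Fas+/+ and at 82.9, 78.1, 93.7 and 84.4 CPM in Fas-/- libraries (log2 fold change 0.55 ± 0.08, adjusted p = 0.0085). The remaining genes that rose, Astn2, Tmem132c, Grin2c (a glutamate receptor subunit), Pir (an iron-binding nuclear protein), Fam198a and Nebl (an actin-binding protein of the Z-disk), changed by 0.46 to 0.86 on the log2 scale.

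Vwa1 (chromosome 4, 155768149 to 155774698, minus strand), an extracellular matrix protein found near basement membranes, was the only gene that fell. It was at 16.4, 23.4, 21.2 and 22.1 CPM in Fas+/+ and at 11.6, 9.59, 11.4 and 13.5 CPM in Fas-/- libraries. Fas+/+ replicate 1 was the lowest of its group and still above every Fas-/- library, and the log2 fold change was -0.85 ± 0.14 (adjusted p = 0.0226). Transcripts annotated on the opposite strand overlap Vwa1, Irf7 (Phrf1), Adh1, Usp18 and Nav2 among others, and the strand setting of the counting was not given in the sources used here, so reads from such partners may be included.

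No profibrotic, collagen or cell cycle gene of the lists passed the test. Of 15 profibrotic genes 13 had a negative log2 fold change, with a median of -0.23, and neither tool called any, nor did any have an unadjusted p of 0.05 or less. The median became 0.05 without Fas+/+ replicate 3 and 0.08 without Fas-/- replicate 4. It was -0.58 without Fas+/+ replicate 1, -0.27 without both libraries that stood apart and -0.78 with the endothelial covariate. In each of the latter fits all 15 genes were negative and edgeR called none. Cthrc1, a marker of collagen-producing fibroblasts in fibrosis, was at 5.84, 65.1, 64.8 and 46.2 CPM in Fas+/+ and at 32.4, 36.8, 24.4 and 12.6 CPM in Fas-/- libraries. Fas+/+ replicate 1 lay far below its group, and the log2 fold change of -0.77 ± 0.55 had an adjusted p of 0.753. Col1a1 was at 3025, 16239, 17202 and 12121 CPM in Fas+/+ and at 11143, 13463, 10481 and 5608 CPM in Fas-/- libraries (log2 fold change -0.26 ± 0.38, adjusted p = 0.879). The 11 fibrillar collagens had a median of -0.10 and none was called by either tool, with 1, Col2a1, at an unadjusted p of 0.05 or less. The smooth muscle actin gene Acta2 (-0.11, adjusted p = 0.922) and elastin, Eln (0.22, adjusted p = 0.860), overlapped between the groups. All 22 cell cycle genes had a negative log2 fold change (median -0.63), none was called by either tool, and the unadjusted p was 0.05 or less in 3. The median was -0.99 with 1 call without Fas+/+ replicate 1, -0.35 without Fas+/+ replicate 3 and -0.41 without Fas-/- replicate 4. Fas+/+ replicate 1 and Fas-/- replicate 4 were the lowest 2 libraries for that list, at 2.23 and 2.34 log2 CPM against 3.36 to 4.48.

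The other lists fixed for this comparison held no edgeR call. Complement genes, such as C4b, C6 and C7, had a positive log2 fold change in 12 of 16 measured members (median 0.27), 8 had an unadjusted p of 0.05 or less and DESeq2 called 2. C4b lay without overlap by a narrow margin (1201 to 2695 CPM in Fas+/+ and 2698 to 2894 CPM in Fas-/- libraries). Estrogen-responsive genes, listed because tamoxifen acts on estrogen receptors, had a median of -0.08 over 17 measured genes, with no call by either tool and no unadjusted p of 0.05 or less. Of the 17 genes 10 had a negative log2 fold change. The mean of the list was 3.86 to 4.16 log2 CPM in Fas-/- and 4.17 to 4.32 in Fas+/+ libraries, without overlap by a narrow margin. Genes of xenobiotic metabolism had a median of 0.15 and immediate early genes, which mark stress during dissociation, a median of 0.19, each with 4 of 20 genes higher at an unadjusted p of 0.05 or less. The median of the immediate early genes was -0.06, with 13 of 20 negative, without Fas-/- replicate 4, which lay at a mean of 9.26 log2 CPM against 8.32 to 8.51 in the other Fas-/- libraries. Erythroid genes had a median of -1.17 over 6 genes and summed to 17.1 to 24.8 CPM in Fas-/- and 28.1 to 89.8 CPM in Fas+/+ libraries, with an unadjusted p of 0.05 or less in 3. Their median was -0.59 without Fas+/+ replicate 1. Among markers of other cells, medians were -0.66 for lymphatic, 0.03 for epithelial, 0.04 for platelet, 0.20 for mesothelial, 0.17 for pericyte and -1.12 for Schwann cell genes. Elastic fiber (median 0.11) and basement membrane genes (0.19) were positive in 16 of 21 and 12 of 19 members, beside 49.4% of all genes. At an unadjusted p of 0.05 or less, 4 and 3 of them were higher and 1 of each list was lower. The elastic fiber count rested on Fas+/+ replicate 1, without which 8 of 21 were positive (median -0.05). Without any other single library 12 to 18 were positive, and with the endothelial covariate 9 were (median -0.04). Smooth muscle (0.03), Wnt (0.0015), TGF-β and BMP (-0.04) and adventitial (-0.02) genes had medians near that of all genes. For smooth muscle genes Fas-/- replicate 4 lay at 6.86 log2 CPM, the other Fas-/- libraries at 8.03 to 8.08 and Fas+/+ libraries at 7.53 to 7.87. Without that replicate all 13 were positive (median 0.25) and 1 was called. The median was -0.07 to 0.07 without any other single library, and DESeq2 called 1 with all libraries.

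Levels in naive mice placed these differences beside the unperturbed lung. Both genotypes were set against the same naive libraries, so the values are given side by side. Markers of other cells differed widely from naive mice. Endothelial markers had a median log2 fold change against naive mice of 4.56 in Fas+/+ and 3.92 in Fas-/- mice. For erythroid genes it was -6.49 and -7.71. A shift in cell content and a shift in level per cell therefore cannot be told apart here. Of the 26 genes that rose, 19 were below the naive level in Fas+/+ mice at 3 weeks. The share of all genes below the naive level is not given here. The 26 genes had been chosen for Fas+/+ levels below those of Fas-/- mice, so the count is not independent of that choice. Adh1 averaged 404 ± 48.5 CPM (SD, n = 4) in naive, 209 ± 21.9 in Fas+/+ and 382 ± 48.3 in Fas-/- mice, and Apoe 1279 ± 98.5 CPM in naive, 757 ± 80.2 in Fas+/+ and 1326 ± 140 in Fas-/- mice. In both genes the naive and Fas-/- ranges overlapped, and Fas+/+ mice stood alone. Irf7 followed another order, at 16.7 ± 3.12 CPM in naive, 30.2 ± 3.61 in Fas+/+ and 64.8 ± 4.94 in Fas-/- mice. The interferon list had a median log2 fold change against naive mice of 0.68 in Fas+/+ and 1.56 in Fas-/- mice, and the lipofibroblast list one of -1.07 in Fas+/+ and -0.60 in Fas-/- mice. Vwa1, at 21.9 ± 1.88 CPM in naive mice, was near that level in Fas+/+ mice (20.7 ± 3.04) and below it in Fas-/- mice (11.5 ± 1.58).

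**Figure D4:**
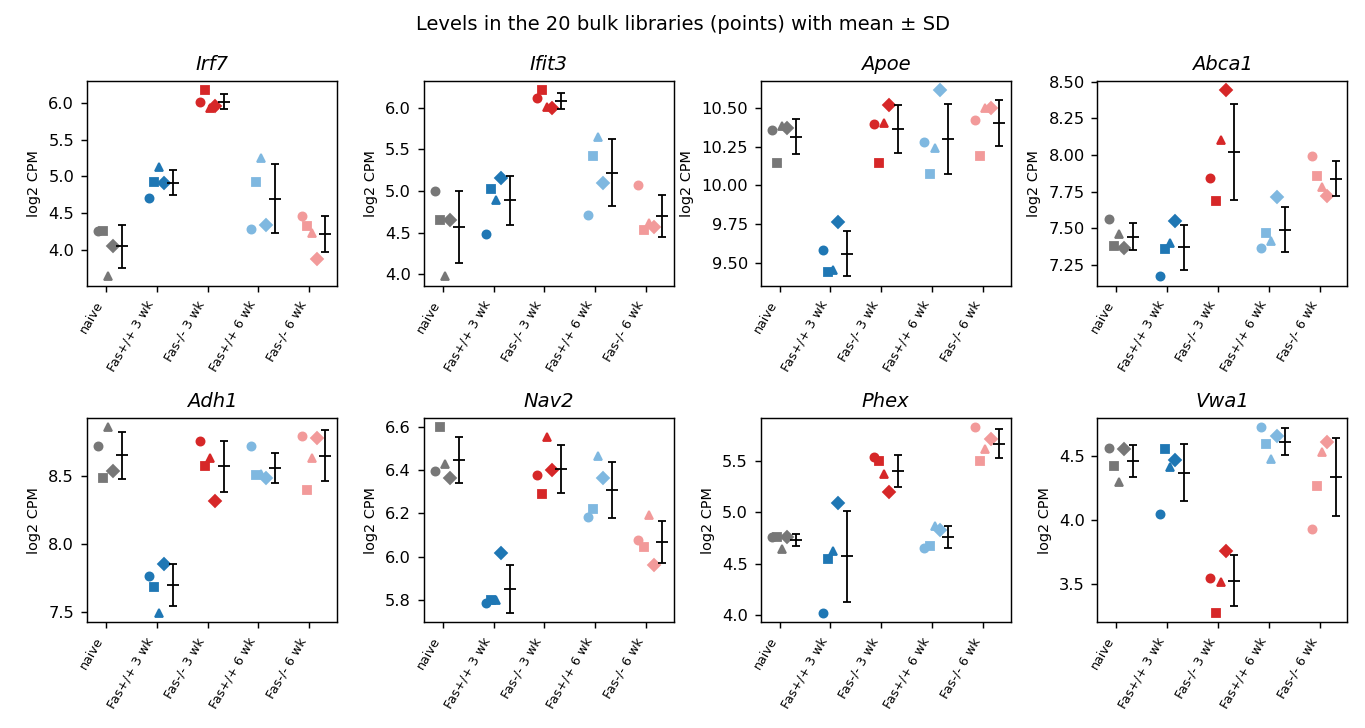
Log2 CPM of 8 genes (vertical axes) in the 20 bulk libraries, in 5 groups of 4 along the horizontal axes, with colored points for libraries and black bars for the mean ± SD. At 3 weeks the Fas-/- libraries lay apart from the Fas+/+ libraries in every gene shown, whereas at 6 weeks only Phex was called.

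At 6 weeks, in 8 other libraries, nearly none of the 27 genes passed the test. Over all genes, edgeR called 4 with a higher and 4 with a lower level in Fas-/- mice then (0.0254% each). The study, which used DESeq2, reported many more upregulated genes at 6 weeks. Counts by DESeq2 for that week are not given here. Of the 27 genes called at 3 weeks, 15 had the same sign at 6 weeks, 3 of them with an unadjusted p of 0.05 or less. A further 6 had the opposite sign with such a p, and of the 27 only Phex was called. The share of all genes with such a p at 6 weeks is not given here. Counts by unadjusted p at 6 weeks, here and for the lists below, therefore have no background beside them. Phex averaged 27.0 ± 1.98 CPM (SD, n = 4) in the Fas+/+ libraries of that week and 50.7 ± 4.92 CPM in the Fas-/- libraries (log2 fold change 0.91 ± 0.15, adjusted p = 0.0338), and its change did not differ detectably between weeks (interaction 0.12, adjusted p = 0.961). The interaction of genotype with week was called in 1 gene (0.00634%), Nav2, which was lower in Fas-/- mice at 6 weeks (67.2 ± 4.52 against 79.4 ± 7.13 CPM). Its change was smaller by 0.79 on the log2 scale than at 3 weeks (adjusted p = 0.0269). Sex transcripts also differed between the weeks. At 6 weeks Ddx3y was at 2.10, 0.084, 0.099 and 48.4 CPM in Fas+/+ and at 55.4, 7.17, 0.564 and 51.5 CPM in Fas-/- libraries. At 3 weeks only Fas+/+ replicate 1 was below 35.4 CPM. Whether sex contributed to the genotype differences at 6 weeks or to changes between weeks was not tested.

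Interferon-stimulated genes mostly had negative log2 fold changes at 6 weeks. Of the 18 genes 17 had a negative log2 fold change (50.3% of all genes did), with a median of -0.26, 6 had an unadjusted p of 0.05 or less and none was called by edgeR. The list means overlapped, at 4.01, 4.73, 5.02 and 4.31 log2 CPM in Fas+/+ and 4.48, 4.15, 4.08 and 4.02 in Fas-/- libraries. Fas+/+ replicate 1 was the lowest library of both groups, and replicates 2 and 3 were the highest. Irf7 averaged 26.9 ± 8.78 CPM in Fas+/+ libraries and 18.8 ± 3.07 CPM in Fas-/- libraries of that week (log2 fold change -0.52, adjusted p = 0.398), and Ifit3 38.2 ± 10.3 against 26.2 ± 5.01 CPM (-0.54, adjusted p = 0.454). Their interactions with week were -1.62 and -1.72, both with an adjusted p of 0.0742. Cholesterol synthesis genes kept their sign in 23 of 24 members at 6 weeks, with a median of -0.34, 6 had an unadjusted p of 0.05 or less and edgeR called none. Their list means overlapped, at 4.40, 4.64, 5.27 and 4.73 log2 CPM in Fas+/+ and 4.35, 4.57, 4.63 and 4.34 in Fas-/- libraries. Fas+/+ replicate 3 was the highest, and fits without it are not given for that week. Profibrotic genes had a median of 0.63 at 6 weeks, with 13 of 15 positive.

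Single-cell RNA-seq of Lin- cells at 3 weeks gave a second reading, with 1 library per genotype, each from a pool of 4 mice per the study, so that no test between genotypes was possible. After a filter of 200 to 7500 genes and at most 20% mitochondrial UMIs, 2664 of 3127 barcodes were kept for Fas+/+ and 2608 of 2933 for Fas-/- mice, with median UMIs of 8896 and 5768 per cell, and 112 barcodes occurred in both libraries. UMIs were summed over cells and scaled to CPM, and intervals are exact 95% Poisson intervals that cover counting error only. Of the 27 genes called in bulk, 14 were higher and 13 lower in the Fas-/- library, with a median log2 ratio of 0.0091 beside -0.03 over 14299 genes with at least 20 UMIs. Without the shared barcodes 12 were higher. Among cells with a UMI of Col1a1 or Pdgfra and none of Pecam1, Cdh5, Epcam or Ptprc (1879 and 1638 cells), 9 were higher.

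Interferon-stimulated genes were lower in the Fas-/- single-cell library, against their direction in bulk. Of the 18 genes 17 were lower (55.8% of all genes were), with a median log2 ratio of -0.35, and 16 were lower without the shared barcodes. Ifit3 was at 58.7 CPM (55.9 to 61.7) in the Fas+/+ and 35.3 CPM (32.6 to 38.2) in the Fas-/- library, and Ifi27l2a at 824 CPM (813 to 835) and 502 CPM (491 to 512). Irf7 was at 21.7 CPM (19.9 to 23.5) and 14.5 CPM (12.7 to 16.4), also without overlap of the intervals. The 17 genes were also lower in the Col1a1 or Pdgfra cells, where the median was -0.42.

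Of the 27 genes called in bulk, 5 had separate intervals with a higher level in the Fas-/- single-cell library. Another 5, Astn2 among them, had separate intervals with a lower level. Among the Col1a1 or Pdgfra cells these numbers were 3 and 8. The share of all genes with separate intervals is not given here, so these counts have no background beside them. At these depths intervals also separated at small ratios, as for Inmt with a log2 ratio of -0.04. Some genes had the same direction in both assays. Myl7 was at 25.9 CPM (24.1 to 27.9) in the Fas+/+ and 53.4 CPM (50 to 57.0) in the Fas-/- single-cell library, Phex at 20.1 CPM (18.4 to 21.9) and 36.0 CPM (33.2 to 39.0), Apoe at 2480 CPM (2461 to 2499) and 2805 CPM (2780 to 2830), and Abca1 at 73.5 CPM (70.3 to 76.8) and 86.2 CPM (81.9 to 90.7). In each of these genes the intervals over all filtered cells did not overlap. Among the Col1a1 or Pdgfra cells those of Abca1 did (69.8 to 77.2 and 74.4 to 85.2 CPM). Adh1, the gene with the smallest p in bulk, was at 183 CPM (178 to 188) and 187 CPM (181 to 194). Cholesterol synthesis genes were lower in 21 of 24 cases, with a median log2 ratio of -0.42, such as Insig1 at 49.1 CPM (46.4 to 51.8) and 33.8 CPM (31.1 to 36.7). Lipofibroblast markers were split in single cells, with 7 higher and 8 lower in the Fas-/- library (median log2 ratio -0.0051) and 10 of 15 lower among the Col1a1 or Pdgfra cells (median -0.11). Over all filtered cells 5 of these markers had separate intervals with a higher and 5 with a lower level. Wnt2 was at 81.7 CPM (78.3 to 85.2) and 66.2 CPM (62.4 to 70.1), Tcf21 at 503 CPM (494 to 511) and 436 CPM (426 to 446), and Pdgfra at 628 CPM (618 to 637) and 540 CPM (529 to 551), all opposite to bulk and without overlap of the intervals. Lpl, the lipoprotein lipase, was at 169 CPM (164 to 174) and 296 CPM (287 to 304). Npnt was at 1032 CPM (1020 to 1044) and 1170 CPM (1154 to 1187), and Limch1 at 1063 CPM (1051 to 1076) and 1150 CPM (1134 to 1166). Both had the same direction as in bulk. Fas itself was at 68.7 CPM (65.6 to 71.9) in the Fas+/+ and 43.2 CPM (40.1 to 46.4) in the Fas-/- library.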

How the data were processed

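Bulk and single-cell RNA-seq of Lin- lung cells were used. The deposited bulk file holds raw counts of 47729 genes, which the authors made with skewer (trimming), HISAT2 (alignment, GRCm38) and HTSeq (Ensembl genes). Their normalized table was not used. The deposited single-cell files hold counts of UMIs, of which the week 3 pair was used. The sort excluded doublets per the study, and no doublet caller was run.

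The counts were fitted in R 4.3.3 by the quasi-likelihood F test of edgeR 4.0.16 on all 20 bulk libraries in 5 groups, after filterByExpr (minimum count 10, 15773 genes kept) and TMM normalization. Adjusted p-values are Benjamini-Hochberg values over all genes tested, and a gene was called at 0.05. CPM used TMM library sizes and log2 CPM a prior count of 2. DESeq2 1.42.0 was an alternative, as were the other settings given in the closing section. The exact permutation test over libraries was two-sided, with 70 arrangements. The study describes replicates as individual animals, but no label ties libraries to animals, so p-values are stated for the spread between these libraries.

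Genes were named by a rule: every called gene, the 4 members with the smallest p of each of 31 lists, and Fas, Col1a1, Acta2, Eln, Cthrc1, Plin2, Tcf21, Wnt2 and Pdgfra. Ifit3b and further list members (such as Isg15, Ifit1, Oas1a, Rsad2 and Abcg1) were chosen after their values were seen. Members and lists were chosen with earlier results of these data known. Pairs of replicates differed beyond sampling noise (chi-square per gene 7.23 or more), so none was a copy. Gene positions are from GENCODE M21 and promoter sequences from RefSeq. The fits were tested on simulated data. Some genes are not reported here by name and were not drawn, but they stay in the counts of calls and lists.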

Additional observations from a re-analysis of the deposited data

Results flagged for a closer look

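The test of genotype by week singled out 1 gene, Nav2, whose log2 fold change at 6 weeks was below that at 3 weeks (difference -0.79, adjusted p = 0.0269 by edgeR). A library stood far from the other 3 of its group in 19 of 132 groups examined at 3 weeks, where chance gives about 1 in 20. Nearly all of these were Fas+/+ replicate 1 or Fas-/- replicate 4, the 2 libraries with the highest endothelial markers. Among single genes, in log2 CPM, Nav2 was at 6.02 in Fas+/+ replicate 4, Oasl2 at 7.30, Acta2 at 8.94 and Plin2 at 6.40 in Fas-/- replicate 4, and Cthrc1 at 2.57 in Fas+/+ replicate 1. In Fas+/+ replicate 1 the mean log2 CPM was 6.65 for profibrotic, 6.66 for fibrillar collagen, 7.88 for elastic fiber, 4.24 for cholesterol synthesis, 5.73 for complement, 6.52 for TGF-β and BMP and 4.88 for epithelial genes. In Fas-/- replicate 4 it was 8.21 for elastic fiber, 6.86 for smooth muscle, 5.06 for death receptor, 6.04 for complement, 4.25 for Wnt, 5.87 for lymphatic and 6.15 for pericyte genes.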

How the results depend on the processing

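All 27 called genes kept their direction in every alternative fit of the bulk counts, which were the counts that had chosen them. The number of calls, 26 higher and 1 lower at 3 weeks, did not hold, and the cause was not tested. Higher and lower genes numbered 140 and 23 with DESeq2, 34 and 3 with RLE normalization, 5 and 0 with only the 8 libraries of week 3 (fewer residual degrees of freedom, 3 of the 27 kept), 33 and 2 with an endothelial covariate (21 kept), 58 and 8 with a Ddx3y covariate, and 406 and 196 without the 2 libraries highest in endothelial markers. Leaving out single libraries gave 0 to 281 higher and 0 to 301 lower genes. The interaction with week was called in 93 genes by DESeq2 and in 0 to 162 genes when single libraries were left out. With the replicate block 44 genes were higher and 1 lower, and 25 of the 27 were kept, but the numbers did not pair the libraries (correlations of deviations -0.56, 0.62, 0.23 and -0.60). In single cells 9 of the 27 genes were higher among Col1a1 or Pdgfra cells, against 14. Among 106 single genes (the named genes other than markers of other cell types and sex genes), sign changed for Fas (0.11; -0.12 to 0.32 when single libraries were left out), Acta2 (-0.23 to 0.13, and 0.0014 without both libraries), Eln (-0.0017 to 0.38), and, with the endothelial covariate, Col27a1 (-0.0020) and Myocd (-0.043). Among the marker and sex genes, sign also changed for Ramp2, Sftpc, Pf4, Gp1bb, Cdh19, Kdm5d and Ddx3y when single libraries were left out. Total counts of 11819700 in Fas+/+ replicate 3 limit low genes such as Apoc1 and Myl7.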
